A study of Mus musculus with 4 samples.

Results

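The globin genes of mouse blood were examined after treatment with naringenin (Nar), a plant flavonoid. The members were chosen by gene symbol from a list of 10 genes, and 9 of them had values in the deposited table of 17823 genes with values. These are the adult alpha genes Hba-a1 and Hba-a2 (NCBI Gene 15122 and 110257), the adult beta genes Hbb-bs and Hbb-bt (100503605 and 101488143), the embryonic genes Hba-x, Hbb-bh1 and Hbb-y (15126, 15132 and 15135), and the theta genes Hbq1a and Hbq1b (216635 and 544763). Ahsp, the gene of the chaperone that holds free alpha chains, was not analysed here.

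The mice were adult C57BL/6 animals, which the study calls aging. Naringenin was injected through the tail vein over 30 days in the Nar group, and volume-matched PBS, a salt buffer, served as the control treatment (Ctrl) over 30 days. Messenger RNA of blood was captured on oligo(dT) beads and sequenced, giving 2 Ctrl and 2 Nar libraries that carry the numbers 1 and 3 in each group. The labels do not say that each library came from an animal of its own, so the p-values measure only the spread between these libraries, which may be technical. The authors deposited FPKM, the fragments per kilobase of transcript scaled to the mapped fragments of the library, so that levels of different genes can be set side by side. The question was which blood transcripts differ after Nar.

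Haemoglobin carries oxygen as an assembly of alpha-type and beta-type chains, each holding a haem group, and its genes lie in separate alpha and beta clusters. Within a cluster the genes are used in turn: Hba-x, Hbb-bh1 and Hbb-y serve the primitive red cells of the embryo, and the adult genes take over in the fetal liver and bone marrow. Theta genes sit beside the adult alpha genes and are transcribed weakly in red cells. Mature red cells of mammals have no nucleus, so the globin mRNA of blood is what reticulocytes, the youngest circulating red cells, still carry. In C57BL/6 mice the beta cluster holds Hbb-bs and Hbb-bt, whereas Hbb-b1 and Hbb-b2 are the corresponding genes of another beta haplotype.

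On GRCm38, the build that the submitters' processing notes name, the alpha cluster lies on chromosome 11. RefSeq places Hba-x at chr11:32276600-32278116, Hba-a1 at chr11:32283672-32284486, Hbq1b at chr11:32286964-32287912, Hba-a2 at chr11:32296492-32297310 and Hbq1a at chr11:32300069-32300873. The beta cluster lies on the minus strand of chromosome 7, with Hbb-bt at chr7:103812524-103813923, Hbb-bs at chr7:103826523-103827928, Hbb-bh1 at chr7:103841638-103843162 and Hbb-y at chr7:103851754-103853207. The adult and theta genes thus come as neighbouring copies. The starts of Hba-a1 and Hba-a2 are 12820 bases apart and those of Hbq1b and Hbq1a 13105 bases.

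The copies are close to identical in sequence, which bears on how reads could be assigned between them. In GENCODE M21 the coding sequences of Hba-a1 and Hba-a2 differ at 1 of 426 aligned positions, and those of Hbb-bs and Hbb-bt at 1 of 441. Hbq1a and Hbq1b are 93.8% identical. Of all windows of 100 bases in the Hba-a1 transcript, 56.5% occur unchanged in Hba-a2, and 62.6% of those of Hbb-bs occur in Hbb-bt. For the theta pair the share is 24.4%. No such window of Hba-a1 occurs in Hba-x or Hbq1a, and none of Hbb-bs in Hbb-y or Hbb-bh1. The split within the adult pairs is therefore uncertain in these values, and the sum of each pair is the firmer measure.

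The promoters are shown because the levels of the genes differ by several orders of magnitude. RefSeq promoter windows on GRCm38.p6 were matched for 8 members. The 120 bases before the annotated start of 6 of them follow, 5′ to 3′ on the gene's own strand, with 4 short motifs in capitals wherever they occur on either strand: CACCC, the core of the box bound by Krüppel-like factors, CCAAT, the letters of the CAAT box, GATAA, the core of the GATA factor motif, and TATAA of the TATA box. The last letters of GATAA are shared with TATAA, and no matches overlap in the sequences shown. A CCAAT on the opposite strand appears as its reverse complement.

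Hba-a1 (chr11:32283552-32283671, plus strand): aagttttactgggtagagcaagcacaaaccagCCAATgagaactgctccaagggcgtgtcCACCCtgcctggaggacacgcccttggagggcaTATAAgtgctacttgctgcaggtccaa
Hbb-bs (chr7:103827929-103828048, minus strand): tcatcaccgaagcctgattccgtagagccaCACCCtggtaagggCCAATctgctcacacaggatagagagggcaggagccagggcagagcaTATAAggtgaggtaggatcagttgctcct
Hbb-bt (chr7:103813924-103814043, minus strand): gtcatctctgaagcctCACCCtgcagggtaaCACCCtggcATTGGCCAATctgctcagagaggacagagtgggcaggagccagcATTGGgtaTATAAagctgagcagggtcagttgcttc
Hba-x (chr11:32276480-32276599, plus strand): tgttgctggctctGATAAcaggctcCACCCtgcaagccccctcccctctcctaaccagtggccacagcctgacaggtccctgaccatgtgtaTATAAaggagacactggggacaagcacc
Hbb-y (chr7:103853208-103853327, minus strand): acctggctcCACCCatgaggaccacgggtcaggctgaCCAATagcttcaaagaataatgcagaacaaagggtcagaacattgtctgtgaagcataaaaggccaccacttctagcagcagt
Hbq1b (chr11:32286844-32286963, plus strand): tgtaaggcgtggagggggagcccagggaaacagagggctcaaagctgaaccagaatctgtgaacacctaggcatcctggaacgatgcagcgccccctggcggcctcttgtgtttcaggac

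The adult windows held CACCC as well as CCAAT and a match of TATAA, which started 27 bases before the start in Hba-a1, 29 in Hbb-bs and 28 in Hbb-bt. The window of the embryonic Hba-x held GATAA as well as CACCC and a match of TATAA, and that of Hbb-y held CACCC as well as CCAAT. The window of Hbq1b held none of these letters, and neither did that of its copy Hbq1a. Of all 32851 promoter windows of the same length, 31.7% held CACCC, 21.3% CCAAT, 10.5% GATAA and 11.8% TATAA. Over 250 bases, the upstream sequences of Hba-a1 and Hba-a2 were 97.6% identical and those of Hbq1a and Hbq1b 95.6%, against 68.4% for Hbb-bs and Hbb-bt. These matches describe letters only, since no binding was measured.

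The 4 adult genes were the 4 highest of all genes with values, and together with the other globin genes they made up between 92.6% and 96.4% of the FPKM sum of a library. Hbb-bs, the main beta gene, had 631437 FPKM in the first Ctrl library and 533231 in the other, beside 526927 and 539729 with Nar. Hba-a2 followed with 412985 and 407514 FPKM in the Ctrl libraries and 497378 and 455391 in the Nar libraries. Hba-a1 had 344669 and 352281 FPKM in Ctrl and 387559 and 462658 with Nar. Both alpha genes were higher in each Nar library than in each Ctrl library, and their order was reversed in Nar 3, where Hba-a1 lay above Hba-a2. Hbb-bt, the minor adult beta gene by level, had 69244 and 75120 FPKM in Ctrl and 73795 and 67961 with Nar. The groups overlapped for both beta genes, and Hbb-bs was highest in Ctrl 1.

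A gap of more than 3 orders of magnitude separated the adult genes from the theta genes. Hbq1b had 24.5 and 40.1 FPKM in Ctrl and 33.2 and 38.1 with Nar. Hbq1a had 23.3 and 14.4 FPKM in Ctrl and 24.4 and 19.2 with Nar. Hbq1b lay above Hbq1a in all 4 libraries, by as little as 1.05-fold in Ctrl 1 and as much as 2.78-fold in Ctrl 3 and neither gene separated the groups. Their sum, at 47.8 and 54.5 FPKM in Ctrl and 57.6 and 57.3 with Nar, was higher in both Nar libraries. Hbq1b and Hbq1a ranked 284 and 431 among the 17823 genes by mean FPKM.

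Embryonic globin transcripts were listed at under 1 FPKM in every library. Hbb-y, the embryonic epsilon-type beta gene, had 0.51 and 0.74 FPKM in Ctrl and 0.43 and 0.36 with Nar. Hba-x, the zeta gene, had 0.15 and 0.08 FPKM in Ctrl and 0.07 and 0.15 with Nar. Hbb-bh1 had 0.07 FPKM in Ctrl 1, was listed at 0 in Ctrl 3, and had 0.22 and 0.15 with Nar. Both Nar values of Hbb-y lay below both Ctrl values and those of Hbb-bh1 above them, while Hba-x overlapped. On a rough estimate of depth from partial steps among the lowest values of the table, Hba-x and Hbb-bh1 rest on at most 3 fragments per library and Hbb-y on 5 to 10. The order of Hba-x and Hbb-bh1 changed between libraries. Without a filter on low values, limma gave Hba-x a log2 fold change of -0.041 (95% interval -0.98 to 0.89, unadjusted p = 0.908, adjusted p = 0.95) and Hbb-bh1 one of 1.12 (95% interval 0.11 to 2.12, unadjusted p = 0.037, adjusted p = 0.147). That fit called 0 of 16382 genes, with 4978 at an unadjusted p under 0.05, so the adjusted values do not bear on these genes in particular.

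**Figure D1:**
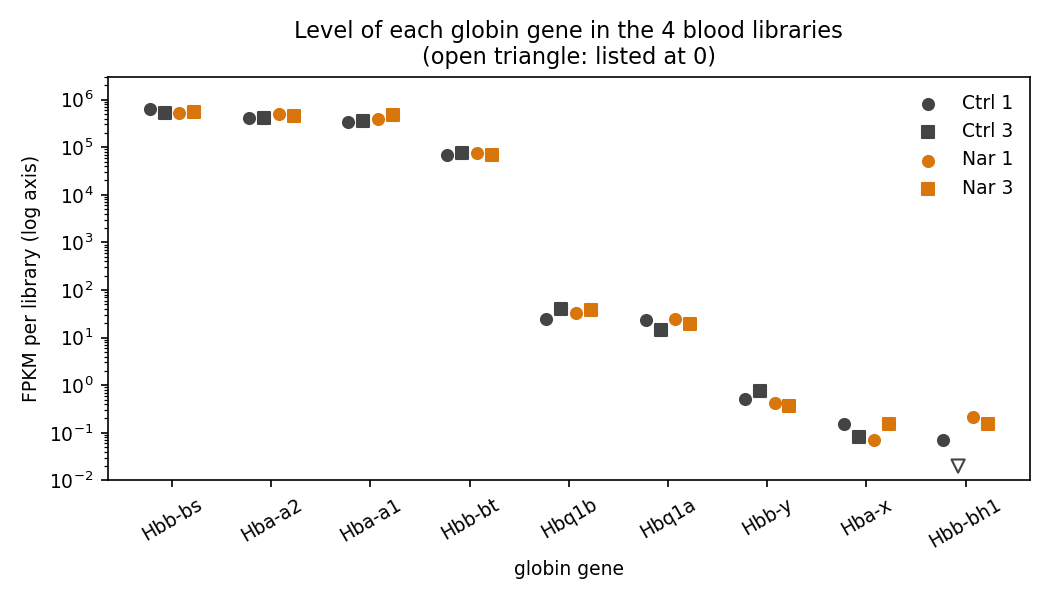
FPKM of each globin gene (log axis) in the 4 blood libraries, Ctrl in grey and Nar in orange, with circles for replicate 1, squares for replicate 3 and an open triangle for a value listed at 0. The 4 adult genes lie at or above 67961 FPKM, the theta genes between 14.4 and 40.1 and the embryonic genes at or below 0.74.

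The balance between alpha and beta mRNA within a library does not depend on how the library was scaled. The ratio of adult alpha (Hba-a1 plus Hba-a2) to adult beta (Hbb-bs plus Hbb-bt) was 1.08 and 1.25 in the Ctrl libraries and lay above both of these in the Nar libraries, at 1.47 and 1.51. The mean was 1.17 ± 0.119 (SD, n = 2) in Ctrl and 1.49 ± 0.0266 (SD, n = 2) with Nar, a 1.28-fold difference, or 0.36 on the log2 scale against a pooled SD of 0.11. The exact two-sided permutation test gave p = 0.333, the smallest that 2 libraries against 2 allow, and 0.5 after Benjamini-Hochberg adjustment over the 3 ratios tested. The alpha sum was 757653 and 759795 FPKM in Ctrl against 884937 and 918049 with Nar, and the beta sum was 700680 and 608350 in Ctrl against 600722 and 607691 with Nar. On the deposited scale the alpha sums were thus higher in both Nar libraries, while the Nar beta sums lay just under the lower of the Ctrl sums and well under that of Ctrl 1.

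The other balances overlapped or rested on few fragments. Hba-a1 was at 0.835 and 0.864 of Hba-a2 in Ctrl and at 0.779 and 1.02 with Nar. Hbb-bs exceeded Hbb-bt by 9.12-fold and 7.10-fold in Ctrl and by 7.14-fold and 7.94-fold with Nar, so that Hbb-bt gave between 9.88% and 12.3% of adult beta FPKM. Per 1000000 FPKM of adult alpha, the theta genes took 63.1 and 71.8 in Ctrl and 65.1 and 62.4 with Nar (exact permutation p = 0.667, adjusted 0.667). Here too the groups overlapped. Per 1000000 FPKM of adult globin, the embryonic genes took 0.501 and 0.599 in Ctrl and 0.485 and 0.433 with Nar (exact permutation p = 0.333, adjusted 0.5). The log2 difference of -0.26 became -0.13 without Ctrl 3 and -0.39 without Ctrl 1. With Hba-x left out and only the beta-type genes compared, the groups overlapped, at 0.828 and 1.22 per 1000000 FPKM of adult beta in Ctrl and 1.08 and 0.839 with Nar.

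**Figure D2:**
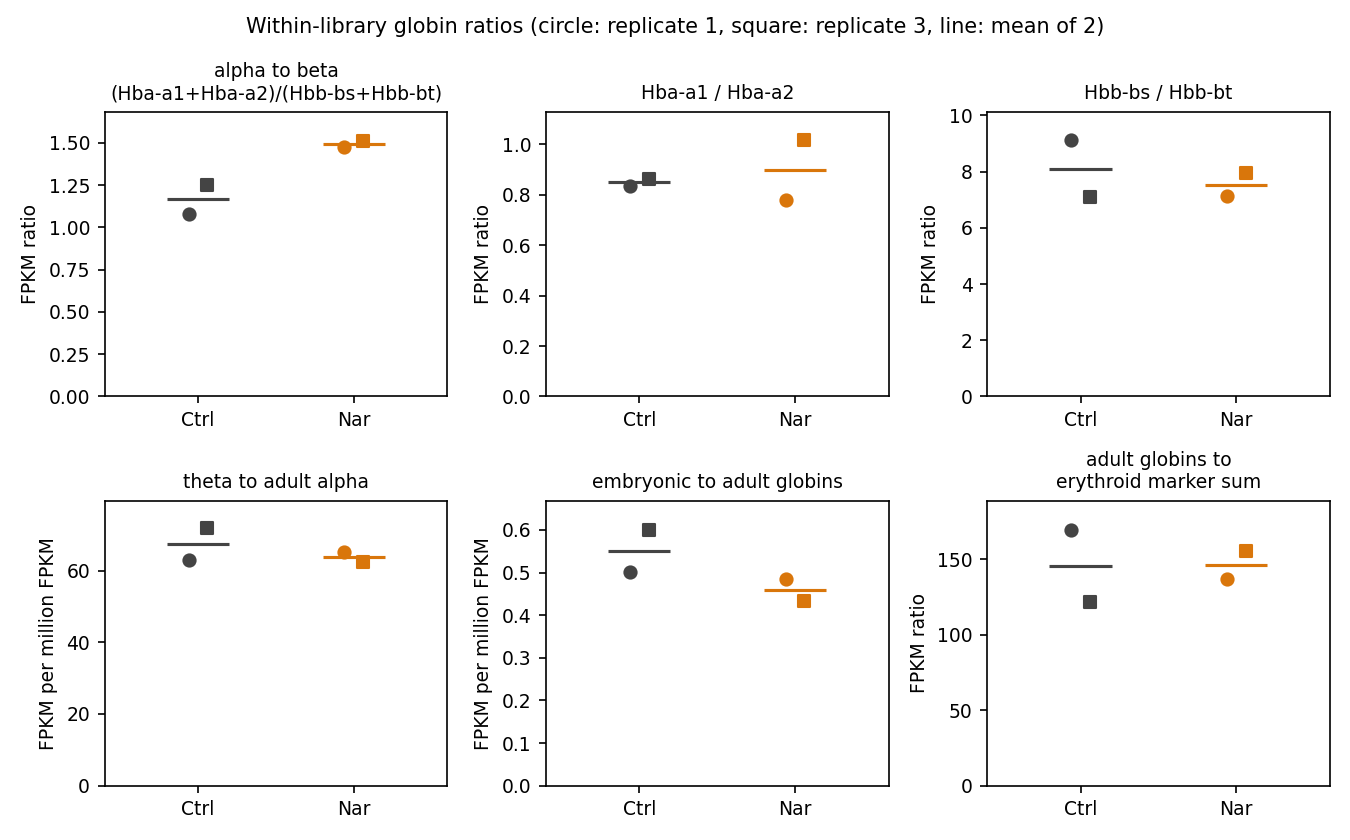
Within-library ratios of globin FPKM for the 2 Ctrl and 2 Nar libraries, each point 1 library and each line the mean of 2. The alpha to beta ratio is 1.08 and 1.25 in Ctrl and 1.47 and 1.51 with Nar, while the copy ratios, the theta share and the ratio to erythroid markers overlap between the groups.

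Differences of single genes were tested with limma on log2(FPKM + 0.1) over 5339 genes, those whose FPKM averaged 0.5 or more. Of the 9 members 7 were among them, and Hba-x and Hbb-bh1 were not. Of the 7, 2 were higher with Nar at an adjusted p-value under 0.05, 0 were lower and 5 did not pass. Over all tested genes 0.187% were called higher, 39.6% lower and 39.8% in either direction. Both Nar libraries lay above both Ctrl libraries for 2 of the 7 globin genes (1.27% of all tested genes) and below for 1, Hbb-y (78.3% of all tested genes).

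The adult alpha genes were the members that passed. Hba-a1 rose by 0.28 on the log2 scale (standard error 0.086, adjusted p = 0.0348, limma) and Hba-a2 by 0.21 (standard error 0.065, adjusted p = 0.0348, limma). Limma moderated these standard errors with a trend over mean level. Without that trend the adjusted p-values were 0.519 and 0.62, and across the 14 alternatives they ran from 0.00787 to 0.844 for Hba-a1 and from 0.00911 to 0.889 for Hba-a2. Both calls were also lost when either Ctrl library or Nar 3 was left out, with adjusted p-values of 0.18 and 0.113 without Ctrl 1, 0.178 and 0.146 without Ctrl 3, and 0.211 and 0.0533 without Nar 3. Without either Ctrl library limma called 0 of the 5339 genes, with 2682 (without Ctrl 1) and 2133 (without Ctrl 3) at an unadjusted p under 0.05, and the log2 fold changes were 0.27 and 0.30 for Hba-a1 and 0.22 and 0.20 for Hba-a2. Without Nar 1, Hba-a1 kept its call (adjusted p = 0.0145) and Hba-a2 did not (0.1). The log2 fold change of Hba-a1 was 0.15 without Nar 3 and 0.41 without Nar 1, and that of Hba-a2 went the other way, at 0.28 and 0.15.

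The adult beta genes did not pass on the deposited scale. The log2 fold change was -0.12 for Hbb-bs (95% interval -0.30 to 0.057, adjusted p = 0.204) and -0.026 for Hbb-bt (95% interval -0.28 to 0.23, adjusted p = 0.845). The theta genes had log2 fold changes of 0.24 (Hbq1a, 95% interval -0.94 to 1.41) and 0.18 (Hbq1b, 95% interval -0.99 to 1.36), with adjusted p-values of 0.696 and 0.764. With 1 library left out, Hbq1a turned to -0.11 (without Ctrl 3) and Hbq1b to -0.17 (without Ctrl 1), while Hbb-bs came to 0.00016 without Ctrl 1 and Hbb-bt to 0.032 without Ctrl 3 and 0.033 without Nar 3. Hbb-y had -0.54 (95% interval -1.47 to 0.40, adjusted p = 0.275), which became -0.30 without Ctrl 3 and -0.77 without Ctrl 1. The intervals of the theta genes and Hbb-y leave room for changes of more than 2-fold in one direction.

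The directions of Hbb-bs, Hbb-bt and Hbb-y depend on what the libraries are scaled to. The alpha and theta genes stayed above 0 under each scaling. Over the 5339 genes the fold changes on the deposited scale centred on -1.07 (log2 median) rather than 0. All 7 globin genes lay above that value, with a median of 0.18. When the libraries were scaled so that the typical gene was level (median of ratios), both beta genes turned positive, at 1.05 for Hbb-bs and 1.15 for Hbb-bt. Hbb-y also turned positive there, at 0.44. All 4 adult genes passed, with adjusted limma p-values from 0.00911 to 0.0335, beside 42 of all 5339 tested genes (10 higher, 32 lower). Scaled to the same sum over genes other than globins, the adult genes lay between 0.44 and 0.84. Limma then called 0 of the 7, beside 274 of all 5339 tested genes (14 higher, 260 lower). The alpha genes had unadjusted limma p-values of 0.019 and 0.0253. FPKM gives shares of a library, so more globin mRNA and less of the other mRNA cannot be told apart here, nor, in bulk blood, fewer cells of a type from less RNA per cell.

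**Figure D3:**
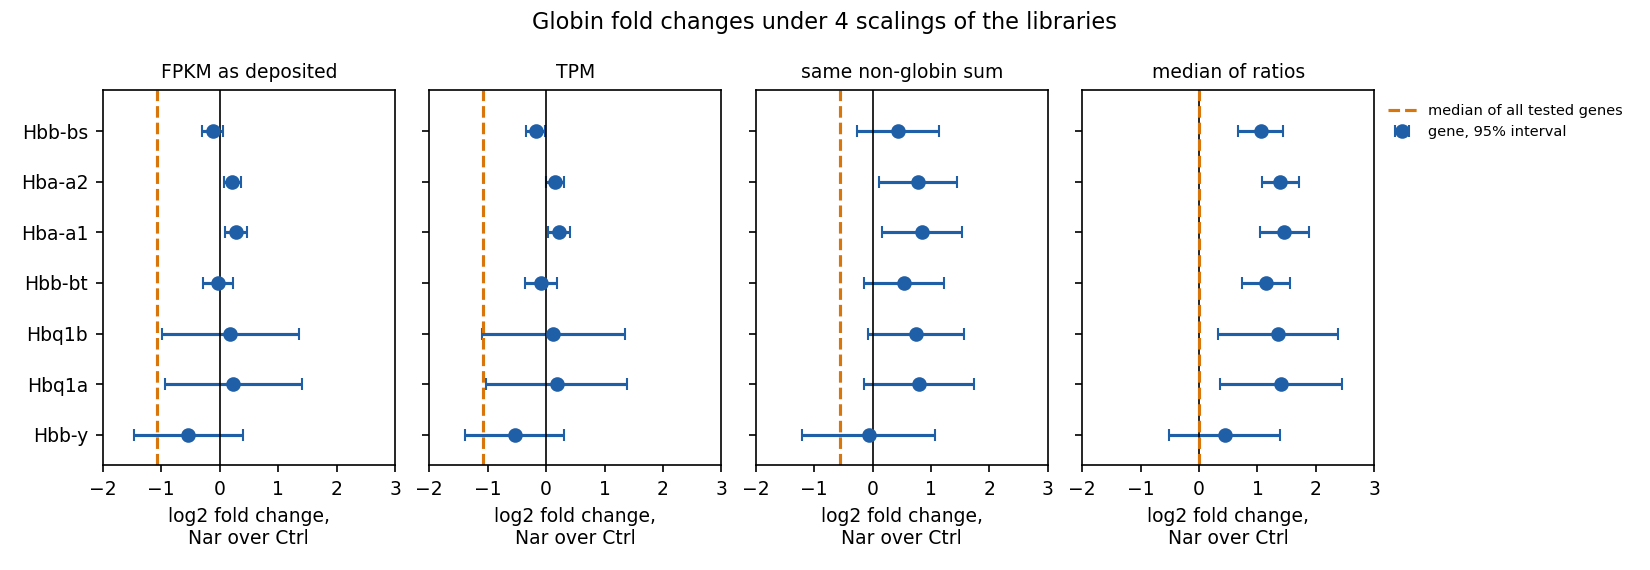
Log2 fold change (Nar over Ctrl) of the 7 tested globin genes with 95% limma intervals under 4 scalings of the libraries; the dashed line is the median of all tested genes. The alpha genes lie above 0 in every panel, whereas Hbb-bs and Hbb-bt move from -0.12 and -0.026 on the deposited scale to 1.05 and 1.15 under median of ratios.

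Other erythroid genes give the setting of the globin values. A list of 36 erythroid markers without globins had values for all 36. Of the 30 tested, limma called 0, with 2 under an unadjusted p of 0.05, with a median log2 fold change of 0.35. Over all 5339 tested genes limma called 0.187% higher and 39.6% lower. The median there was -1.07, and 3036 genes had an unadjusted p under 0.05. Under median of ratios limma called 42 of all 5339 tested genes, whose median was -0.0016. The markers there had a median of 1.49 and 29 of the 30 lay above 0, again with 0 called. On the deposited scale both Nar libraries lay above both Ctrl libraries for 6 of them and below for 4, beside 1.27% above and 78.3% below over all tested genes. The summed FPKM of the list was 8619 and 11265 in Ctrl and 10829 and 9804 with Nar, so the groups overlapped. Adult globin FPKM was 169 and 121 times that sum in Ctrl and 137 and 156 times with Nar, means of 145 ± 33.8 and 146 ± 13.03 (SD, n = 2 each).

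Of the highest of these markers, 4 are given here. Alas2, which makes the first haem precursor in red cells, had 6055 and 6991 FPKM in Ctrl and 6492 and 6487 with Nar. Mkrn1, a ubiquitin ligase gene, had 334 and 766 in Ctrl and 788 and 527 with Nar, Fech, which inserts iron into haem, had 348 and 678 against 714 and 552, and Epb41, of the membrane skeleton, had 298 and 667 against 538 and 458. In each of these 4 the groups overlapped. Their adjusted p-values ran from 0.483 for Fech to 0.989 for Alas2.

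Genes that control globin transcription or translation were counted from a list of 34 regulators, of which 2 (Lin28b and Igf2bp1) were listed at 0 in every library and 23 were tested. Of these, 0 rose, 6 fell and 17 did not pass, with a median log2 fold change of -0.92 beside -1.07 for all tested genes, of which 39.6% were called lower. The 6 with a mean of at least 5 FPKM follow. Lmo2, a bridging protein of the erythroid GATA1 complex, had 12.0 and 14.4 FPKM in Ctrl and 32.2 and 15.2 with Nar (adjusted p = 0.254). Nfe2, an activator at the beta locus control region, had 20.9 and 57.0 in Ctrl and 19.8 and 11.3 with Nar (adjusted p = 0.129). Gata1, the master erythroid factor, had 4.23 and 12.6 in Ctrl and 3.42 and 3.06 with Nar (adjusted p = 0.112). Mbd2, a methyl-CpG reader that helps silence embryonic globin genes, fell from 10.4 and 22.7 in Ctrl to 4.78 and 5.40 with Nar (log2 fold change -1.58, adjusted p = 0.0443). Atf4, a stress-response factor, had 14.1 and 17.4 in Ctrl and 8.37 and 12.98 with Nar (adjusted p = 0.323). Eif2ak1, the haem-regulated kinase that slows globin translation when haem is short, had 5.13 and 12.8 against 7.22 and 4.75 (adjusted p = 0.481). The other 5 that fell, Bach1, Klf13, Mafk, Mta2 and Hdac1, had means under 5 FPKM and were named after their values were seen. The 6 calls were lost after median-of-ratios scaling, where their log2 fold changes ran from -1.04 for Bach1 to -0.08 for Hdac1. They were also lost without Ctrl 1 or without Ctrl 3, where limma called no gene of the table. Nfe2, Gata1, Mbd2, Atf4 and Eif2ak1 were each highest in Ctrl 3. Platelet markers were also highest in that library, with a sum of 2904 FPKM against 580 to 889 in the others. So were the erythroid markers (11265 FPKM) and the sum over all genes other than globins (109426 FPKM). The part of platelet RNA in these values was not tested.

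Genes that handle haemoglobin after its synthesis or release were counted from a list of 13, of which 10 were tested, 0 rose, 2 fell and 8 did not pass, with a median log2 fold change of -0.37 beside 39.6% lower and a median of -1.07 over all tested genes. Hp, which encodes haptoglobin, the plasma binder of free haemoglobin, fell from 27.9 and 26.2 FPKM in Ctrl to 2.95 and 4.26 with Nar (log2 fold change -2.90, adjusted p = 0.00671), and Hmox1, the inducible haem oxygenase, whose mean was under 5 FPKM, fell by 1.64 on the log2 scale (adjusted p = 0.0214). Both calls were lost without Ctrl 1 or without Ctrl 3, where limma called no gene of the table, and under median of ratios, where Hp had a log2 fold change of -1.74 (adjusted p = 0.101) and Hmox1 one of -0.62 (adjusted p = 0.614). Of all 5339 tested genes, limma called 42 under median of ratios. Haptoglobin mRNA in blood is known from maturing neutrophils, and all 13 neutrophil markers tested fell as well. Their part in the change of Hp was not tested. Bpgm, which makes the 2,3-bisphosphoglycerate that lowers the oxygen affinity of haemoglobin, had 1544 and 1862 FPKM in Ctrl and 2352 and 1959 with Nar (adjusted p = 0.353), and both Nar values lay above both Ctrl values. Blvrb, a biliverdin and flavin reductase gene, had 40.3 and 118 in Ctrl and 128 and 109 with Nar, Slc48a1, a haem transporter, 87.1 and 137 against 134 and 122, and Cyb5a, whose product helps keep haem iron reduced, 30.4 and 81.0 against 32.0 and 24.0. Nt5c3, a nucleotidase of reticulocytes, had 21.1 and 43.7 against 44.5 and 35.5, and Hmox2, the constitutive haem oxygenase, 5.89 and 6.61 against 4.78 and 9.38. The groups overlapped in each of these last 5 genes.

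**Figure D4:**
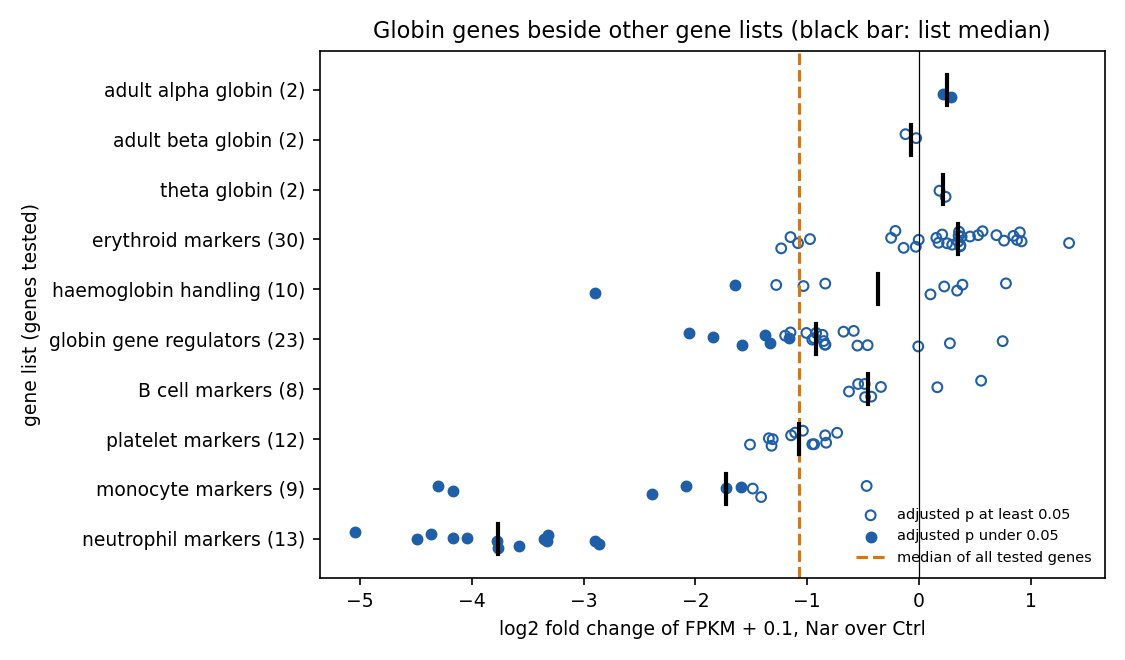
Log2 fold change of FPKM + 0.1 (Nar over Ctrl) for each tested gene of 10 lists, filled where the limma adjusted p-value was under 0.05; the black bar is the list median and the dashed line the median of all tested genes, -1.07. Adult alpha genes lie above 0 and all 13 neutrophil markers below -2.

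Further globin rows were listed beside the members. Hbb-b1 had 89.96 and 85.5 FPKM in Ctrl and 76.6 and 75.2 with Nar, and Hbb-b2 had 11.4 and 8.22 against 8.49 and 9.5. Together they took 145 and 154 per 1000000 FPKM of adult beta in Ctrl and 142 and 139 with Nar. As near copies of Hbb-bs and Hbb-bt from another haplotype, their values are uncertain. Hbb-bh2 had 0.77 and 2.67 FPKM in Ctrl and 0.64 and 0.41 with Nar. None of these 3 passed (adjusted p = 0.708, 0.847 and 0.0683). Of the other globin-type genes in that list of 9, Mb, the myoglobin gene, was listed at 0 in every library, and Cygb and Ngb did not exceed 0.04 FPKM.

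The labelled tissue was checked with markers of the other blood cells, and no marker of any list was listed at 0 in all libraries. The counts and medians on the deposited scale stand beside 39.6% called lower and a median of -1.07 over all tested genes. Neutrophil markers, led by S100a9 as the highest by mean FPKM, summed to 1472 to 1769 FPKM in Ctrl and 106 to 168 with Nar. Of these, 13 of 13 tested fell (median log2 fold change -3.77). Monocyte markers summed to 380 to 473 against 103 to 159, led by Lyz2, and 6 of 9 fell (median -1.73). Platelet markers summed to 889 and 2904 in Ctrl and 816 and 580 with Nar, led by Pf4, and 0 of 12 passed, with 1 at an unadjusted p under 0.05 (median -1.07). B cell markers, led by Cd79a, summed to 30.6 to 40.01 against 29.5 to 31.1, and 0 of 8 passed, with 0 at an unadjusted p under 0.05 (median -0.46). T cell markers, led by Lat, which had 7 and 20.2 FPKM in Ctrl and 5.24 and 4.03 with Nar, summed to 16.7 and 26.3 in Ctrl against 11.1 and 8.18 with Nar (0 of 7 passed, 3 at an unadjusted p under 0.05, median -0.75), and NK markers, led by Gzma, to 23.2 to 25.3 against 5.6 to 11.5 (2 of 8 fell, median -1.24). Under median of ratios limma called 42 of all 5339 tested genes (10 higher, 32 lower), whose median was -0.0016. With that scaling the calls came to 6 of 13 for neutrophil, 2 of 9 for monocyte and 0 of 8 for NK markers. The medians of these lists were -2.60, -0.61 and -0.28. There the median turned positive for platelet (0.10), T cell (0.28) and B cell markers (0.63). The part of these cells in the globin results was not tested.

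The genes nearest to the globins in pattern were sought over the 4 libraries among all tested genes, by Euclidean distance between log2(FPKM + 0.1) values centred on each gene's mean. Nearest to the mean profile of Hba-a1 and Hba-a2 were Dcaf7 (distance 0.111), Rnmt (0.160), Sppl2b (0.189), Bmyc (0.218) and Fam220a (0.226). Of these, Fam220a was the highest, at 436 and 414 FPKM in Ctrl and 522 and 445 with Nar. Rnmt, Sppl2b and Bmyc lay between 0.50 and 0.73 FPKM in the libraries, near the filter of 0.5 on the mean. Nearest to Hbb-bs and Hbb-bt were Aqp9 (0.0487), Jund (0.131), Hbb-b1 (0.135), Usp4 (0.145) and Bmyc (0.159). With 4 libraries such distances describe these libraries only.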

How the data were processed

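Blood RNA-seq libraries, 2 Nar and 2 Ctrl, were grouped by their labels. The authors deposited FPKM per gene, rounded to 2 decimals, in 1 column per library, and 0 columns were left over. The study's methods name bowtie-2 alignment to reference gene sequences, and the submitters' processing notes name TopHat2, Cufflinks and GRCm38. The annotation is not given in the sources used here. Of 23136 genes listed, 5313 were blank throughout and left out.

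Depth was estimated from FPKM times transcript length (GENCODE M21, 2167 genes with 1 transcript), whose low values repeated at steps of 43.3 to 45.1. The steps were partial (mean cosine 0.239 to 0.36, where 1 is perfect), so the fragment numbers given for the embryonic genes are rough estimates that entered no test, and no counting errors were derived. The precision of low values is further limited by the rounding.

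Values were tested as log2(FPKM + 0.1), which understates changes of low genes, with limma 3.58.1 in R 4.3.3 (lmFit, eBayes with trend, Benjamini-Hochberg) for genes with a mean of at least 0.5 FPKM. The DEGseq test of the study needs read numbers and was not repeated. The script was tested on simulated data. Ratios were compared by exact permutation. Of 4 planned, 1 needed Ahsp and was not run. Promoters came from RefSeq (GRCm38.p6).

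The members and gene lists were chosen with earlier results of these data known. Named were all members, the 5 nearest genes by profile, regulators and haemoglobin-handling genes with a mean of at least 5 FPKM, the 5 highest erythroid markers (of which 1 is not reported here) and the highest gene of each other marker list. Gata1 and Klf1 stand in both the erythroid and the regulator list. Alternatives were pseudocounts of 1 and 0.01, no filter, a mean of at least 5, TPM, median of ratios, an equal non-globin sum, no trend, replicate blocks and each library left out. Plots were drawn with matplotlib 3.10.9.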

Additional observations from a re-analysis of the deposited data

How the results depend on the processing

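Genes called by limma numbered 2123 (10 higher, 2113 lower). Without the filter there were 0 (4978 of 16382 genes at an unadjusted p under 0.05), with a mean of at least 5 FPKM 117, with median of ratios 42 (10 higher, 32 lower), with the same non-globin sum 274 (14 higher, 260 lower), and from 0 to 259 with a library left out. The 0 came without Ctrl 1 (2682 genes at an unadjusted p under 0.05) and without Ctrl 3 (2133). Of the 2 globin genes called, 1 remained with a pseudocount of 0.01, Hba-a1, and 0 without the filter, with a mean of at least 5, with TPM, with the same non-globin sum and without the trend, while 4 were called with median of ratios and from 0 to 1 with a library left out. The embryonic ratio (-0.26 on the log2 scale) moved to -0.075 for beta-type genes and ran from -0.39 to -0.13 with a library left out.

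Hbb-bs reversed to 1.05 with median of ratios, 0.44 with the same non-globin sum and 0.000159 without Ctrl 1. Without any other library it stayed between -0.24 and -0.10. Hbb-bt reversed to 1.15 and 0.54 under the same scalings, and to 0.0324 without Ctrl 3 and 0.0331 without Nar 3. It stayed at -0.085 without Ctrl 1 and -0.086 without Nar 1. Hbb-y reversed to 0.44 with median of ratios (-0.77 to -0.30 with a library left out). Hbq1a reversed to -0.11 without Ctrl 3 (0.58 at the highest) and Hbq1b to -0.17 without Ctrl 1 (0.54 at the highest). These 5 genes passed in no such setting but Hbb-bs and Hbb-bt with median of ratios. The cause was not tested, beyond the scaling itself. The alpha to beta ratio lay between 0.26 and 0.46 on the log2 scale in the 7 alternatives. Since both Nar ratios lay above both Ctrl ratios, leaving a library out, taking group means or pairing libraries could not turn its direction. Only the ratio of Hba-a1 to Hbb-bs could have turned, and it gave 0.40. The theta ratio ran from -0.17 to 0.01.

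The groups share only the numbers 1 and 3, and the deviations of same-numbered libraries correlated at -0.153. The replicate block gave 1815 genes and both alpha genes (limma adjusted p = 0.00787 and 0.0144). Pairing same-numbered libraries leaves the alpha to beta difference at 0.36 by arithmetic, with 0.45 for number 1 and 0.27 for number 3. The crossed replicate block, chosen after seeing the data, gave 3233 genes and 1 globin gene. Hbb-y had no value with a mean of at least 5. Depth limits Hba-x, Hbb-bh1 and Hbb-y.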
